A study of Drosophila melanogaster with 2 samples.

Results

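The genes described here are 45 genes of the cell cycle and of DNA replication in the fruit fly Drosophila melanogaster. They were taken by symbol from a list that was drawn up with results of these data known. All 45 symbols were found among the 13968 protein-coding genes of the annotation. They comprise 13 genes of DNA replication, 10 genes of G1 and entry into S phase, 11 genes of mitosis, and 11 genes of transcriptional and other cyclin-dependent kinases (CDKs) and cyclins. The question was where a tagged transcription factor, Bteb2, lies at these genes in the embryo. Chromatin immunoprecipitation with sequencing was done with an anti-GFP antibody (GFP, green fluorescent protein) on whole embryos of pooled sexes, aged 4 to 20 h, of a transgenic line that stably expresses Bteb2 with GFP at its C terminus (Bteb2-eGFP). The gene for Bteb2 is Klf15, which belongs to the Krüppel-like factors (KLF), zinc finger DNA-binding proteins. The 2 libraries form 1 group, biological replicates 1 and 3 of the same line, with no second genotype or treatment. How the collections were kept apart is not described, so the spread between the libraries may be technical. What drives the transgene is not given in the sources used here, control samples were not analysed here, and a whole embryo mixes all its cell types.

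In G1 the origin recognition complex, Cdc6 and Cdt1 load the MCM helicase onto origins, and geminin keeps this from recurring within a cycle. Cyclin E with Cdk2, and E2F-DP dimers released from Retinoblastoma family proteins, start S phase, while Cdk1 with the A and B cyclins drives mitosis and the anaphase-promoting complex ends it. In the fly embryo the earliest divisions run on maternal products, and transcription of the Cdc25 phosphatase gene string times later ones. Many fly replication genes carry E2F sites or the DNA replication-related element (DRE), the site of the factor DREF.

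The measurements are peaks, regions where the immunoprecipitated DNA was enriched, each with a summit and a signal value given by the authors. The optimal set holds the 3350 peaks that the authors kept as reproducible between replicates, and they are also the 3350 strongest of 30000 peaks in a relaxed list made from both replicates together (the pooled list). Each replicate has a relaxed list of 30000 peaks of its own. These lists reach into weak and possibly background regions, since their −log10 q-values reached as low as 0.18 in the pooled list, against 3.95 at each optimal peak. Signal fell from 1369 to 65.9 within the optimal set, and its scale differs between lists, so peaks were compared by rank within a list, with rank 1 the strongest. A gene was said to have a promoter peak when a summit was no more than 1000 bp from one of its annotated transcription start sites (TSSs), and negative distances are upstream. The number of reads in each library is unknown here, so no counting error can be given. No test was made, because the gene list was drawn up with results of these data known. Most counts stand beside the same count over all protein-coding genes.

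The DNA under 5 of the peaks is shown first, because these peaks include the strongest of the 45 genes (Rbf2), the strongest of mitosis (aurA), the master mitotic kinase (Cdk1), an MCM gene (Mcm5) and a transcriptional CDK (Cdk7). Each is 101 bases of the Release 6 assembly (dm6, from RefSeq), plus strand, 5′ to 3′, with the summit at the middle base. Capitals mark a DRE, TATCGATA, and any other motif searched would be capitalised too. The windows are chr3R:15965316-15965416 for Rbf2, chr3R:11962837-11962937 for aurA, chr2L:10386382-10386482 for Cdk1, chr3R:10788333-10788433 for Mcm5 and chrX:5309156-5309256 for Cdk7. All 5 summits were intergenic.
Rbf2: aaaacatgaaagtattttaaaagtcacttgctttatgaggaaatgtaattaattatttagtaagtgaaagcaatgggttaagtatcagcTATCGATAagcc
aurA: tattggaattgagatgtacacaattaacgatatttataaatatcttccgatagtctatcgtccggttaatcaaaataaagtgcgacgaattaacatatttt
Cdk1: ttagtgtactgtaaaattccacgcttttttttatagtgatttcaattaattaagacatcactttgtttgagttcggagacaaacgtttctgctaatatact
Mcm5: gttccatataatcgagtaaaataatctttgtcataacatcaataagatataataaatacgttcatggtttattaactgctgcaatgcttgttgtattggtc
Cdk7: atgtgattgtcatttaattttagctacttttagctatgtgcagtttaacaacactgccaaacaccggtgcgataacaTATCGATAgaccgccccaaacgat
The DRE began 39 bp from the Rbf2 summit and 27 bp from the Cdk7 summit. The windows of aurA, Cdk1 and Mcm5 held none of the letters searched.

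Promoter sites of cell cycle factors are shown next, so that those of genes with and without an optimal peak can be compared. Each is 30 bases on the strand of the gene, 5′ to 3′, from dm6, with the site in capitals. The first 5 hold an E2F site (TTTCCCGC, TTTCGCGC, TTTGCCGC or TTTGGCGC, on either strand) at chr3R:8264990-8265019, chrX:5323838-5323867, chr3R:10788544-10788573, chrX:6674389-6674418 and chr3R:29255795-29255824.
Mcm2: ctcgattagcaaacatTTTCCCGCgcattt
Mcm3: cacactacgctTTTCCCGCgaaaaaacttt
Mcm5: ccggtaattttgGCGGCAAAatattcgcac
Mcm6: gtcagaaaaagGCGCCAAAaccgagcaaag
stg: taaaagctcgcGCGCCAAAatcagtggcct
Of these 5 genes, Mcm5 had an optimal promoter peak. The others hold a DRE at chr3R:15965394-15965423, chr3R:13964891-13964920, chr3R:20735551-20735580, chr3L:11833571-11833600, chr3L:17557819-17557848 and chr2L:11813748-11813777.
Rbf2: taagtatcagcTATCGATAagccagctaaa
Orc2: catgtcttagtTATCGATAattcccgccac
Cdk2: taaggaattctTATCGATAtgtggcgctgc
CycA: acgccacgaccTATCGATAgctggacagtg
CycT: tttaaaaataaTATCGATAatgcgaaataa
CycY: ccactgatatcTATCGATAtttataaaata
Of these, Rbf2 had an optimal promoter peak. Across all 45 genes 29 had none, so sites of any kind would more often lie at genes without a peak. The genes stg, CycA, CycT and CycY lie on the minus strand of the chromosome, and the others on the plus strand.

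Bteb2-eGFP had an optimal promoter peak at 16 of the 45 genes (35.6%), against 20.4% of all protein-coding genes. The genes with a peak included cyclins and kinases of both G1 and mitosis (CycE, Cdk4, CycB, Cdk1, polo, aurA), the E2F partners and brakes E2f2, Dp and Rbf2, and 3 replication factors (dup, dpa, Mcm5). By role, the share was 5 of 10 for G1 (50%), 5 of 11 for mitosis (45.5%), 3 of 11 for transcriptional and other CDKs and cyclins (27.3%) and 3 of 13 for replication (23.1%). The replication share lay near the background of 20.4%, but it was 5 of 13 (38.5%) at a distance of 2000 bp, against 24.8%, and with any base of the peak within 1000 bp, against 21.3%. The G1 share was 3 of 10 (30%) at 250 and at 500 bp, without the CycE and Cdk4 peaks, beside 23.1% for replication at both distances and 36.4% and 45.5% for mitosis. The difference between replication and the G1 and mitosis genes rests on a few genes in each class and was not tested.

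**Figure D1:**
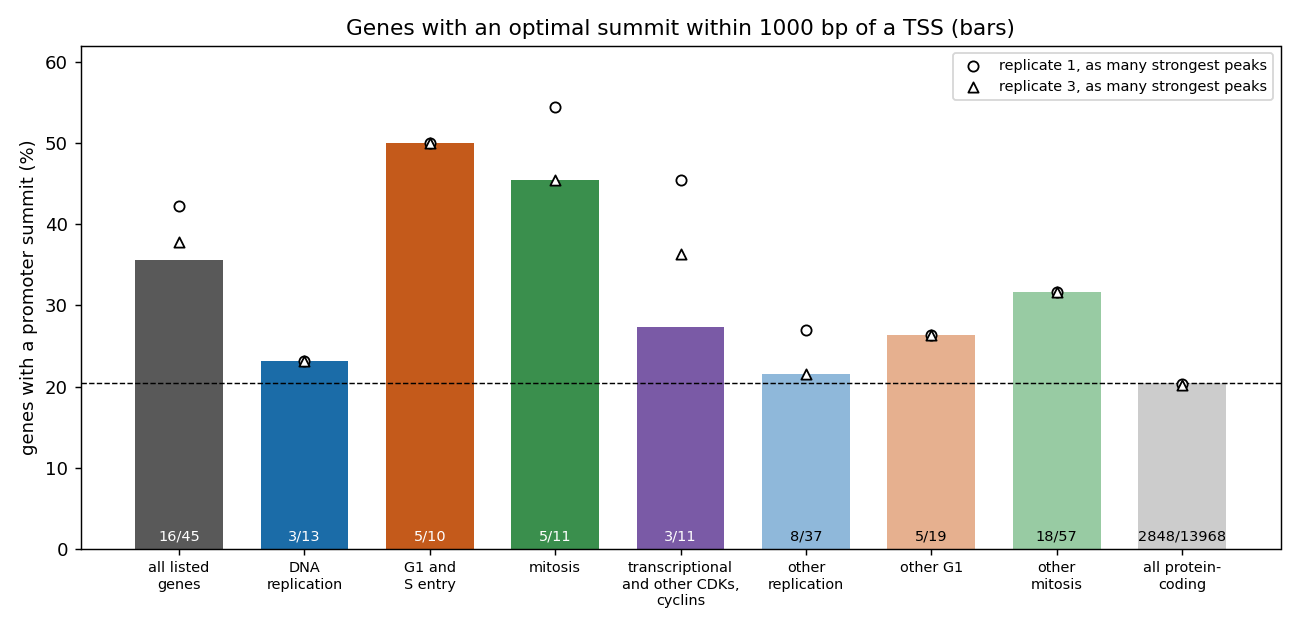
Share of genes with an optimal summit within 1000 bp of a TSS (bars, in percent, with counts at the foot), for the 45 listed genes, their 4 roles, other genes of the same pathways and all protein-coding genes (dashed line). Circles and triangles give the share from as many of the strongest peaks of replicate 1 and replicate 3; G1 stood at 50% in all 3, and replication at 23.1%.

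Among the replication genes the strongest peak was that of dpa, which encodes the MCM subunit Mcm4. Its summit lay 77 bp upstream of a TSS, with signal 157 and rank 716 in the pooled list, signal 112 and rank 507 in replicate 1, and signal 49.5 and rank 1100 in replicate 3. The gene dup, which encodes the helicase loader Cdt1, had signal 142 and rank 868 in the pooled list, signal 77.7 and rank 1111 in replicate 1, and signal 64.1 and rank 639 in replicate 3. A weaker dup peak of rank 3241 lay 351 bp upstream. Mcm5, another helicase subunit, had signal 98.4 and rank 1690 in the pooled list, signal 54.9 and rank 2109 in replicate 1, and signal 34.2 and rank 2139 in replicate 3. The replicates thus placed Mcm5 at nearly the same rank, while dpa ranked higher in replicate 1 and dup in replicate 3.

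The other 10 replication genes had no optimal promoter peak. In the pooled list, the origin recognition genes stood at rank 8712 (Orc2) and 10685 (Orc1), the loader Cdc6 at 10136 and the Cdt1 inhibitor geminin at 7594. The highest of the 10 was the helicase subunit Mcm2, at rank 4741. Mcm6 stood at 26768 and the polymerase clamp PCNA at 23449, close to the end of the list. Mcm3, Mcm7 and the helicase cofactor Mcm10 had no promoter summit in the pooled list, and Mcm3 had none in any list. The MCM subunits thus ran from an optimal peak (dpa, Mcm5) to none (Mcm3), although all are parts of one helicase.

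The nearest optimal peaks of PCNA and Mcm3 lay just past the distance used. That of PCNA had rank 944 and signal 136 and lay 1079 bp upstream, 17 bp from the TSS of the ribosomal protein gene RpS18. That of Mcm3 had rank 1356 and signal 111 and lay 1100 bp upstream, 59 bp from the TSS of Rnp4F. Just inside the distance were the peaks of CycE at 668 bp and Cdk4 at 598 bp. With a distance of 2000 bp, 19 of the 45 genes had a peak against a background of 24.8%, the gain being PCNA, Mcm3 and E2f1.

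The strongest peaks of all 45 genes were at regulators of S phase entry. Rbf2, a Retinoblastoma family protein that represses E2F targets, had signal 195 and rank 416 in the pooled list, signal 136 and rank 316 in replicate 1, and signal 59.2 and rank 769 in replicate 3. Dp, the dimer partner of both E2F proteins, had 3 promoter peaks, the most of any of the 45 genes. The strongest lay 180 bp upstream of a TSS, with signal 180 and rank 507 in the pooled list, signal 113 and rank 496 in replicate 1, and signal 76.3 and rank 429 in replicate 3. The other Dp peaks ranked 1115 and 1393 and lay 382 bp downstream and 38 bp upstream. E2f2, the repressor E2F, had signal 73.4 and rank 2811 in the pooled list, signal 44.5 and rank 3115 in replicate 1, and signal 27.7 and rank 3066 in replicate 3. The E2f2 peak was therefore among the weaker optimal peaks, in both replicates alike.

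The G1 kinase gene Cdk4 had signal 107 and rank 1456 in the pooled list, signal 61.0 and rank 1736 in replicate 1, and signal 43.2 and rank 1419 in replicate 3. CycE, the S phase cyclin, had signal 67.9 and rank 3178 in the pooled list, close to the last optimal rank. The strongest CycE promoter summit ranked 4416 in replicate 1, with signal 35.6, and 2358 in replicate 3, with signal 32.5. By the strongest promoter summit in each list, CycE was the one gene of the 16 that fell outside the 3350 strongest peaks of a replicate. The activator E2f1 had no optimal promoter peak, but an optimal peak of signal 75.6 and rank 2667 lay in its intron, 4812 bp downstream of the nearest TSS. That intronic peak ranked 1808 in replicate 1 and 7000 in replicate 3, so the replicates differed at it. Below the optimal set were the kinase gene Cdk2 (rank 5347), the CDK inhibitor dap (5364), the founding Retinoblastoma gene Rbf (6398) and CycD, the partner of Cdk4 (8404).

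Among the mitosis genes, aurA, a centrosome and spindle kinase, had signal 147 and rank 810 in the pooled list, signal 89.9 and rank 843 in replicate 1, and signal 56.6 and rank 840 in replicate 3. A further aurA peak of rank 1352 lay 37 bp upstream of the TSS. Cdk1, the kinase that starts mitosis, had signal 130 and rank 1029 in the pooled list, signal 65.0 and rank 1533 in replicate 1, and signal 63.0 and rank 659 in replicate 3. The replicates placed aurA at almost one rank, and Cdk1 stood higher in replicate 3. The gene fzr, an activator of the anaphase-promoting complex, had signal 99.2 and rank 1660 in the pooled list, signal 69.1 and rank 1377 in replicate 1, and signal 32.5 and rank 2348 in replicate 3. The mitotic kinase gene polo had signal 96.5 and rank 1747 in the pooled list, signal 57.2 and rank 1950 in replicate 1, and signal 38.1 and rank 1775 in replicate 3. CycB, the mitotic cyclin, had signal 87.5 and rank 2091 in the pooled list, signal 54.3 and rank 2153 in replicate 1, and signal 33.0 and rank 2283 in replicate 3. All 5 of these genes were among the 3350 strongest peaks of both replicates.

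The remaining mitosis genes ranged from CycA, just past the optimal set, to promoters with weak summits only. CycA, the cyclin of S phase and mitosis, ranked 4220 in the pooled list, CycB3 ranked 5853, and fzy, the other activator of the anaphase-promoting complex, ranked 7014. The Cdc25 phosphatase gene stg stood at rank 16672 and its germline relative twe at 21210. The kinase gene aurB stood at 22235, although its relative aurA had the strongest peak of the class. The Cdc25 genes and aurB thus had only summits in the weak part of the list.

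The genes of transcriptional CDKs and cyclins had peaks of middle rank. Cdk7, the kinase of TFIIH and of CDK activation, had signal 91.1 and rank 1934 in the pooled list, signal 45.6 and rank 2981 in replicate 1, and signal 37.4 and rank 1824 in replicate 3. Cdk8, the Mediator kinase, had signal 84.5 and rank 2216 in the pooled list, signal 49.8 and rank 2518 in replicate 1, and signal 33.3 and rank 2243 in replicate 3. Neither of their cyclins had an optimal peak, with CycH at rank 3994 and CycC at 7677. CycG had a summit 8 bp upstream of a TSS, with signal 70.3 and rank 3017, and a stronger intronic peak of rank 2363 at 5937 bp downstream. The promoter peak of CycG matched rank 2182 in replicate 1 and 5349 in replicate 3, where another summit near a CycG TSS was the stronger, at rank 2234. The pair of elongation kinase genes Cdk9 and Cdk12 ranked 4355 and 4028, and their cyclin genes ranked 3647 (CycT) or had no pooled promoter summit (CycK). CycY ranked 5296, and Cdk5, a kinase known for its neuronal role, had no promoter summit in any list.

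**Figure D2:**
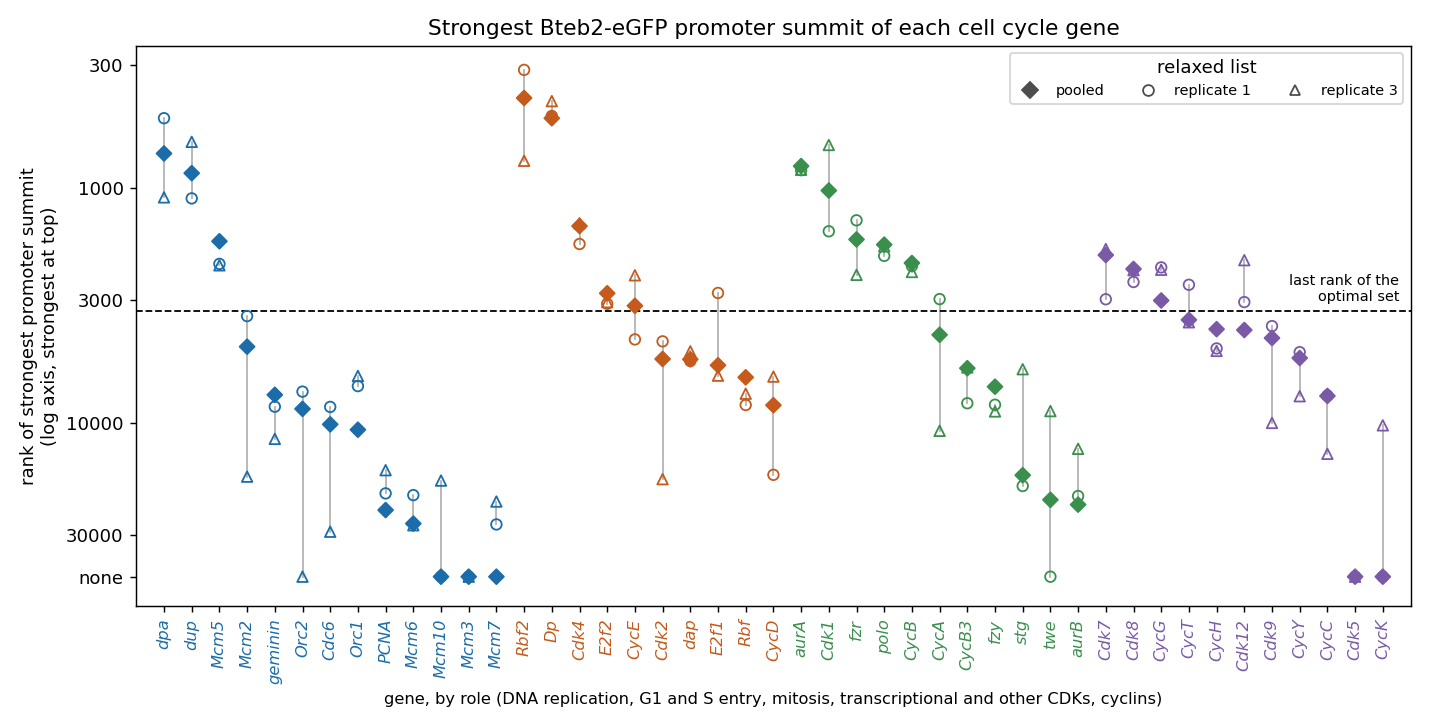
Rank of the strongest promoter summit of each of the 45 genes (log axis, strongest at the top) in the pooled list (diamonds), replicate 1 (circles) and replicate 3 (triangles), by role. Points above the dashed line are within the 3350 strongest peaks of their list; Rbf2 stands highest at pooled rank 416, and Cdk5 and Mcm3 lie at none in all 3 lists.

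Just past the optimal set came CycT, CycH, Cdk12, CycA, Cdk9 and Mcm2, at pooled ranks from 3647 to 4741. As many peaks again, to rank 6700, brought the count to 28 of 45 genes, against 33.8% of protein-coding genes. With the 1675 strongest peaks alone it was 8 of 45, against 11.5%. In the whole pooled list 40 of 45 genes had a promoter summit, against 62.4%. The median pooled rank, with genes that had none placed after the last, was 4262 for G1, 4220 for mitosis, 4028 for transcriptional and other genes and 10136 for replication. It was 5296 for the 45 genes and 15022 for all protein-coding genes. The replication genes had the lowest-placed median of the 4 roles.

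**Figure D3:**
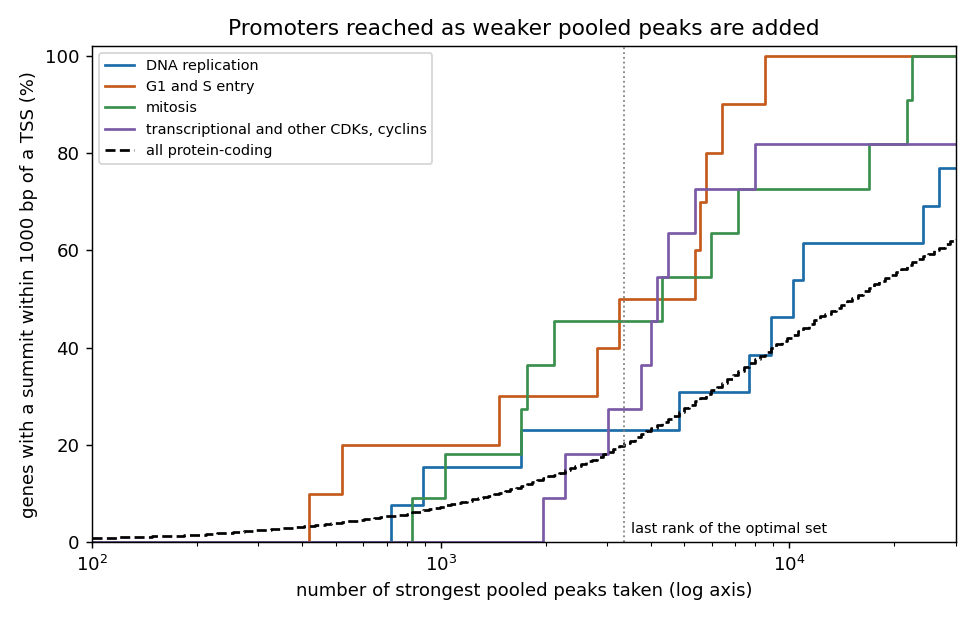
Share of genes with a summit within 1000 bp of a TSS (percent) as more of the strongest pooled peaks are taken (log axis), by role and for all protein-coding genes (dashed). At rank 3350 (dotted line) the roles stand at 50% (G1), 45.5% (mitosis), 27.3% (transcriptional and other) and 23.1% (replication); all G1 and mitosis genes, but not all replication genes, are reached by rank 30000.

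Between replicates, each gene was taken by its strongest promoter summit, which need not be the same peak in both. On that basis 15 of the 16 genes with an optimal promoter peak were within the 3350 strongest peaks of both. The share was 76.6% of the protein-coding genes with such a peak. For CycG another summit was the strongest in replicate 3, where the optimal peak itself ranked 5349. The median absolute log2 ratio of the 2 ranks, of summits taken in the same way, was 0.25 for these 16 genes. It was 0.616 for protein-coding genes with a peak. It was 0.591 for the 23 listed genes that had no optimal peak but a summit in both replicates. From the strongest peaks of replicate 1 alone 19 of the 45 genes were reached, against 20.3%, and from those of replicate 3 alone 17, against 20.2%. CycA (rank 2976 in replicate 1 and 10799 in replicate 3), E2f1 (2803 and 6294) and CycT (2587 and 3735) were reached in replicate 1 only, and CycE in replicate 3 only. Cdk12 was reached in both, with ranks 3064 and 2034, but its strongest summit lay 41 bp upstream of a TSS in replicate 1 and 375 bp upstream in replicate 3.

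Genes without an optimal peak differed more widely between the libraries in some cases. Mcm2 ranked 3514 in replicate 1 and 16908 in replicate 3, Cdk2 4501 and 17331, and Cdc6 8546 and 28985. In the other direction, stg ranked 18527 and 5911, and CycD 16608 and 6353. The summits compared were not the same site for Cdc6, at 25 bp downstream in replicate 1 and 723 bp upstream in replicate 3. Those of stg lay 28 and 360 bp downstream. Orc2 had a summit in replicate 1 only (rank 7359) and twe in replicate 3 only (8904). In the whole relaxed lists 40 of 45 genes had a promoter summit in replicate 1, against 62.7%, and 42 in replicate 3, against 62.4%. Summits in all 3 lists were found at 38 of the 45 genes, a count for which no share over all protein-coding genes is given here.

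The 16 genes had 20 optimal promoter peaks in all, and 19 of these lay upstream of the nearest TSS of the named gene. The strongest summit was upstream of the nearest TSS at 16 of 16 genes, against 84.7% of protein-coding genes with a peak. At dup, dpa, CycE, E2f2, Dp, polo and CycG this summit lay inside the annotated gene, downstream of its 5′-most TSS. The median distance of the strongest summit was 132 bp, against 157 bp, and 15 of the 20 summits were within 250 bp. The median signal of the strongest peak was 98.8, against 106. A distance of 250 bp left 13 of 45 genes with a peak, against 14.8%, and a distance of 500 bp left 14, against 17.9%. With any base of the peak within 1000 bp the count was 18, against 21.3%, and with the 5′-most TSS only it was 15, against 18.8%.

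**Figure D4:**
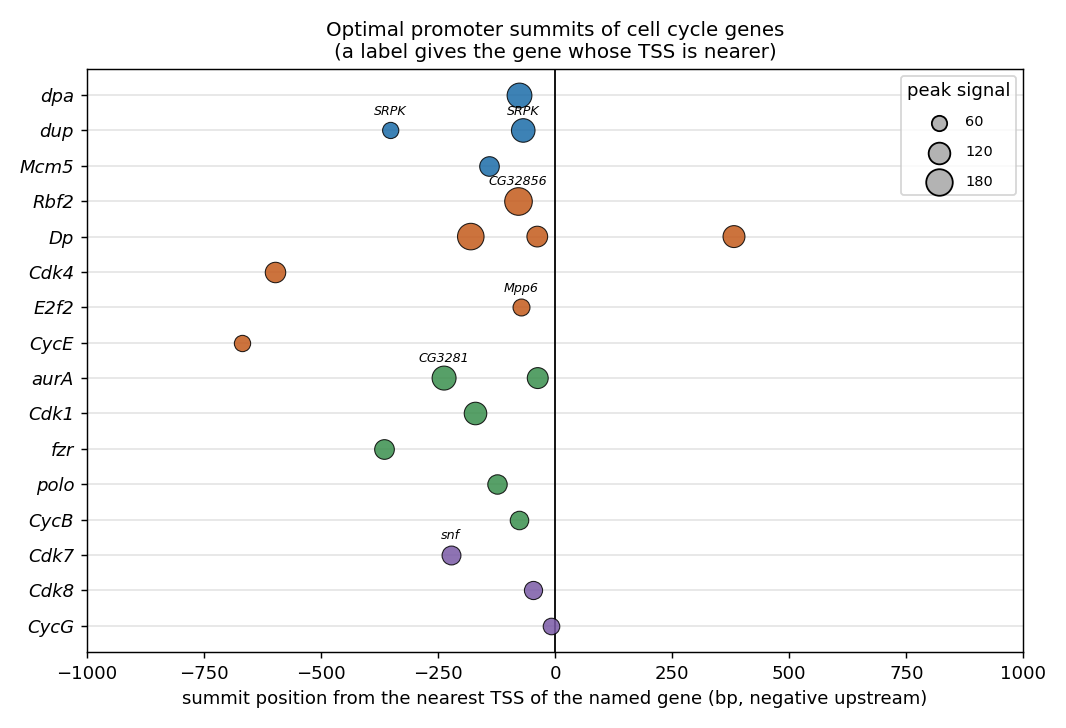
Position of the 20 optimal promoter summits from the nearest TSS of the named gene (bp, negative upstream), with point area by peak signal and color by role. A label gives the other gene where its TSS is nearer. All but 1 summit, of Dp at 382 bp, lie upstream of the nearest TSS of the named gene, which can be internal to that gene.

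Many of these peaks cannot be given to 1 gene. Of the 20 peaks, 13 lay within 1000 bp of the TSS of another protein-coding gene. For 6 peaks the TSS of another gene was the nearer. The same shares over all optimal promoter peaks are not given here, so the sharing cannot be called particular to these genes. Close neighbours are common, since 42.8% of protein-coding genes had another coding TSS within 1000 bp. The Rbf2 summit was 80 bp from Rbf2 and 15 bp from CG32856, and the Cdk7 summit was 223 bp from Cdk7 and 36 bp from snf, a gene of spliceosomal RNA-protein particles. The E2f2 summit was 72 bp from E2f2 and 16 bp from Mpp6, and the stronger dup summit was 68 bp from dup and 42 bp from SRPK, which encodes a splicing factor kinase. The stronger aurA summit lay 82 bp from CG3281. Further pairs were Cdk1 with the mitochondrial ribosomal protein gene mRpS7 (170 and 230 bp), Mcm5 with the arginine methyltransferase gene Art1 (141 and 157 bp) and dpa with the myosin gene didum (77 and 193 bp). At 9 of the 16 genes each peak was shared in this way, and at the other 7 (CycE, Cdk4, Dp, fzr, polo, CycG and Cdk8) at least 1 peak was not.

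Across all genes, the share with a peak was higher where a gene had a close neighbour or several TSSs. Of the 45 genes, 25 (55.6%) had another coding TSS within 1000 bp of their own, against 42.8% of protein-coding genes. Among those 25, 11 had a peak (44%), against 32.4%, and among the 20 with no such neighbour 5 had one (25%), against 11.3%. Of the 28 genes with 1 TSS, 6 had a peak (21.4%), against 15.7%, and of the 17 with more, 10 had one (58.8%), against 33.5%. The part of these features in the counts by role was not tested.

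Within gene bodies, 8 of 45 genes (17.8%) had an optimal summit, against 9.61% of protein-coding genes, and 25 had a pooled summit, against 43.3%. The 8 were dup, dpa, CycE, E2f1, E2f2, Dp, polo and CycG, so 4 of them were G1 genes. At dup, dpa, E2f2 and polo the summit lay in the 5′ UTR, and at CycE, E2f1, Dp and CycG in an intron. Only the peaks of E2f1 at 4812 bp and of CycG at 5937 bp were in the body without being at a promoter. With promoters and bodies together, 17 genes had an optimal peak and 28 had none, and the share over all protein-coding genes is not given for this count.

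Positions on dm6 of further peaks, not shown as sequence, were chr2R:15380474-15380889 for the stronger dup peak, chr2R:7499746-7500161 for dpa and chr2R:13223203-13223618 for the strongest Dp peak. The weaker dup, Dp and aurA peaks and the intronic CycG peak are not listed. Those of the G1 genes Cdk4, CycE and E2f2 were chr2R:16578664-16579079, chr2L:15747070-15747485 and chr2L:21156096-21156511. Those of the mitosis genes CycB, fzr and polo were chr2R:22806817-22807232, chrX:4679695-4680110 and chr3L:20309715-20310130. Those of Cdk8 and of the CycG promoter were chr3L:9838510-9838925 and chr3R:31609615-31610030, and the intronic E2f1 peak was chr3R:21627673-21628088. All of these peaks were 416 bp wide, the commonest width in the set.

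Sites of cell cycle factors were counted in promoter windows from 250 bp before to 50 bp after the 5′-most TSS, on both strands. A peak could lie at any TSS up to 1000 bp away, so some peaks lay outside these windows. The E2F sites near the dup and dpa summits and the DRE near the Cdk7 summit were not in them. The counts for genes with and without a peak below therefore do not describe the DNA under the peaks. E2F sites were at 6 of 45 genes (13.3%), against 6.41% of protein-coding genes, and 5 of the 6 were replication genes (Orc1, Mcm2, Mcm3, Mcm5 and Mcm6). They were at 1 of the 16 genes with an optimal promoter peak (Mcm5) and at 5 of the 29 without. The DRE was at 8 genes (17.8%), against 9.36%, namely Orc2, PCNA, Cdk2, Rbf2, CycA, CycT, CycY and Cdk9. It was at 1 of the 16 genes with an optimal promoter peak (Rbf2, 6.25%) and at 7 of the 29 without (24.1%). With 7 of its bases, TATCGAT, chosen after seeing the data, it was at 4 of the 16 (25%: Mcm5, Rbf2, CycB and Cdk7) and at 9 of the 29 (31%), a smaller difference. These 7 bases were at 13 of the 45 genes (28.9%), against 18.2% of protein-coding genes. Motif 1 (GGTCACACT), a core promoter site of the factor M1BP, was at 6 genes (13.3%), against 6.04%, of which 4 were mitosis genes (CycB, CycB3, fzy and aurB). Motif 1 was at 1 of the 16 genes with an optimal promoter peak (CycB) and at 5 of the 29 without. The cell cycle homology region (CHR, TTTGAA), known at mitosis genes, was at 17 genes (37.8%), against 40.7%, which is near the background. The CHR was at 5 of the 16 with a peak (31.2%) and at 12 of the 29 without (41.4%). KLF and SP boxes were searched as the GC box GGGCGGG, the variant box GGGCGTG, the CACCC-type box GGGTGGG and the variant box GGGTGTG. They were at 2 genes (4.44%), dpa and aurA, against 6.14%. Both genes had an optimal promoter peak, so KLF and SP boxes were at 2 of the 16 with a peak (12.5%) and at 0 of the 29 without. None of these differences between genes with and without a peak was tested.

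The same letters were counted in windows of 201 bp centred on the 20 summits. The DRE was in 2 windows (Rbf2 and Cdk7), or 10%, against 7.49% of optimal windows at protein-coding promoters. E2F sites were in 2 (dup and dpa), against 4.06%, and in dpa a site began 3 bp from the summit. Motif 1 was in 2 (CycB and fzr), against 3.06%, and KLF or SP boxes were in 2 (Dp and aurA), against 3.79%. CHR letters were in 6 (30%), against 33.2%. Each of these counts rests on a few windows. No match of one motif overlapped a match of another in the windows of the 45 genes. The GC content of the windows had a median of 35.8%, against 35.3% in all optimal windows.

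Other genes of the same pathways, listed by role from textbook knowledge, had an optimal promoter peak at 31 of 113 (27.4%), against 20.4%. Of other replication genes 8 of 37 (21.6%) had one, of other G1 genes 5 of 19 (26.3%) and of other mitosis genes 18 of 57 (31.6%). The strongest was chif, the activating subunit of the origin kinase Cdc7, at rank 42 and signal 510, with ranks 38 and 61 in the replicates. Its summit was 985 bp upstream, near the edge of the distance used. The polymerase delta subunit gene PolD2 ranked 891, the ribonucleotide reductase gene RnrS 1228 and the primase gene Prim1 1652. Among other G1 genes, the ubiquitin ligase subunit gene SkpA ranked 310, Dref, which encodes the DRE binding factor, ranked 649, lin-52, of the complex that represses cell cycle genes, ranked 2016, and Cul1, a ubiquitin ligase scaffold, ranked 2794. The SkpA summit was 999 bp upstream, also at the edge of the distance. Among other mitosis genes, the cytokinesis gene pbl ranked 651, the condensin genes SMC2 and Cap-H2 ranked 815 and 865, and the anaphase-promoting complex gene Cdc16 ranked 1033. The replication share lay near the background in this list. Some of the other mitosis genes shared a peak, which was counted for each of them.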

How the data were processed

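Anti-GFP ChIP-seq of 2 libraries in 1 group was analysed. Files on dm6 were the optimal set and 3 relaxed lists (pooled, replicate 1 and replicate 3), and lists on dm3 were not used here. The peak signal is the authors' deposited value in column 7, and the −log10 q-value is the deposited column 9 of the narrowPeak files. The notes beside the files state that the optimal set came from the irreproducible discovery rate method. For the aligner, peak caller and threshold, the tools were not given in the sources used here.

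Summits were set against 23694 TSSs of Ensembl release 115 (FlyBase 6.54) without transposable elements, with Python 3.11.15, NumPy 2.4.6 and pandas 2.3.3. Sequences and exact motif letters were read from the Release 6 assembly of RefSeq. Where replicates were compared, the 3350 strongest peaks of each were used. The counting was tested on simulated data with summits and motifs placed at known positions. The genes and lists were chosen with earlier results of these data known. All 45 genes could be named, those with an optimal peak with full values, and of the other pathway genes up to 4 of each role with the strongest promoter peaks. Of 114 other genes listed, 113 were matched, 1 of them by synonym. The alternatives tried were other distances, the 5′-most TSS, peak overlap, other numbers of peaks, each replicate alone and other motif windows. The alternative of 7 bases of the DRE was chosen after seeing the data.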

Additional observations from a re-analysis of the deposited data

How the results depend on the processing

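Of 79 alternatives, 56 left the count within 1.5 times its main value and 23 did not. With the stronger 1675 optimal peaks, 8 of 45 genes had a promoter peak (replication 2, G1 3, mitosis 3, transcriptional and other 0). Other pathway genes with one numbered 18, and the promoter background was 11.5%. A body peak was left at 3 of the 45 genes (6.67%), against 5.46% of protein-coding genes. With 6700 pooled peaks, 28 of 45 genes had a promoter peak (replication 4, G1 9, mitosis 7, transcriptional and other 8). Other pathway genes with one numbered 58, and the promoter background was 33.8%. Body peaks were then at 14 of the 45 genes (31.1%), against 16.4% of protein-coding genes. Replication had 5 of 13 genes (38.5%) rather than 3 (23.1%) with a distance of 2000 bp or with peak overlap, and G1 had 3 of 10 (30%) rather than 5 (50%) at 250 and 500 bp. The 7-base DRE, chosen after seeing the data, was in 3 summit windows (15%) rather than 2. That share was near the 15.1% of optimal windows at protein-coding promoters. In summit windows of 50 bp to each side, E2F was in 1 (5%), against 1.46% of optimal windows at protein-coding promoters. CHR was in 2 (10%), against 18.2%, motif 1 in 0, against 1.28%, and KLF or SP in 1 (5%), against 1.55%. With 200 bp to each side, CHR was in 10 (50%), against 50.7%, which is near the background. The cause was not tested beyond the larger or smaller windows and peak numbers themselves.

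From 1 replicate alone the promoter counts ranged from 17 to 19 for the 45 genes and from 5 to 6 for mitosis. They were 3 for replication and 5 for G1 from either replicate. They ranged from 4 to 5 for transcriptional and other genes and from 31 to 33 for other pathway genes. The promoter background was 20.2% to 20.3%. Genes with a body peak numbered 9 to 10 of the 45, against 9.41% to 9.92% of protein-coding genes. Without replicate 3, transcriptional and other genes with a promoter peak numbered 5 rather than 3. No paired analysis was possible because the samples form 1 group. Counts of few genes per role limit all comparisons by role, and reads per library are unknown.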
